A study of Rattus norvegicus with 2 samples.

Results

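Aminoacyl-tRNA synthetases, the enzymes that join each amino acid to its transfer RNA, were followed through the gene expression of rat (Rattus norvegicus) embryonic stem cells. Members were the genes whose description in the deposited table names a tRNA synthetase and does not hold "like", "interacting" or "pseudogene". This gave 37 of 23282 genes, from 39 rows of the table, with rows of the same Entrez identifier summed. They comprised 20 cytosolic genes, 15 mitochondrial genes (symbol ending in 2) and 2 genes, Aarsd1 and Prorsd1, whose products are described only as containing a synthetase domain. The study sequenced total RNA from the DA-EC8/Rrrc line (RRRC#464), derived from the Dark Agouti strain, in 2 libraries called biological replicates. The cells were wild type, at passage 30, with a karyotype labelled normal, and were grown without further treatment in 2i medium, which holds inhibitors of MEK and GSK3. Both libraries form 1 group from 1 line, so no contrast between conditions exists and no test between groups was possible. The labels do not say how the cultures were separated, so the SD over 2 replicates may be largely technical.

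Values are RPKM (reads normalised to the length of the gene model in kilobases and to sequencing depth), a scale that allows levels to be compared between genes. From the steps between values the depth was estimated at 2991184 reads for replicate 1 and 3050685 for replicate 2, where 3 reads in a gene model of 2 kb would give 0.501 and 0.492 RPKM. All 8 embryonic stem cell markers reached 10 RPKM, with Pou5f1, which encodes Oct4, at 591 and 577 RPKM. Of 8 fibroblast or feeder markers 3 reached a mean of 1 RPKM, none reached 10 RPKM, and Col1a2, S100a4 and Lum were listed at 0 in both. The summed level of the 8 was 5.97 RPKM in the first replicate and 11.005 RPKM in the second, and its part in the values below was not tested.

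A synthetase activates its amino acid with ATP and transfers it to the matching tRNA, which sets the accuracy of the genetic code. The enzymes fall into 2 structural classes, I and II, with unrelated catalytic folds. Nuclear genes encode both the cytosolic set and a separate mitochondrial set, which serves the few proteins made from mitochondrial DNA. Several cytosolic enzymes are held together in a multisynthetase complex by scaffold proteins. Gars and Kars serve both compartments from a single gene. Mitochondrial glutaminyl-tRNA is made indirectly, by amidation of a mischarged tRNA. Many cytosolic synthetase genes are known targets of ATF4, the transcription factor of the amino acid response, which binds a composite element with the core TGATGNAA.

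That core is shown first because it was found near the start of a larger share of cytosolic members than of all genes. The choice of members did not use this feature. No test was run on it. RefSeq promoter windows of the GRCr8 assembly, from 250 bases before to 50 bases after each start, were matched by Entrez identifier to 32 of the 37 members. TGATGNAA, searched on both strands, was found in 7 of 17 cytosolic windows and in 0 of 13 mitochondrial windows, against 4.16% of 27457 genes in the RefSeq table. The share was 2.07% of the 8832 genes with a window whose mean was 1 RPKM or more. At such shares 13 windows are likely to hold no match, so the 0 does not set the mitochondrial genes apart. Each of the 7 windows held at least 1 match with the same letter at the open position, TGATGCAA or its reverse complement TTGCATCA. These exact letters occurred in 0.827% of all genes with a window and in 0.577% of the 8832 of them whose mean was 1 RPKM or more. The letters were chosen after these matches were seen, so both shares are a description and lend the matches no support. The sites of 6 of these 7 genes are printed below, 5′ to 3′ on the strand of the gene, with the core in capitals.
Tars (chr2:62114811-62114840, minus strand): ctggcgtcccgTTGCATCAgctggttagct
Iars (chr17:15193658-15193687, minus strand): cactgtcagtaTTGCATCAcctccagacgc
Mars (chr7:65023752-65023781, minus strand): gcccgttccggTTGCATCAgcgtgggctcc
Nars (chr18:60275778-60275807, minus strand): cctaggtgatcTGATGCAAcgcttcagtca
Cars (chr1:208225334-208225363, minus strand): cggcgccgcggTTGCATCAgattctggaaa
Yars (chr5:146820190-146820212, plus strand): acgagctcagcTGATGCAAcctg

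The core of Tars began at base -27 from the annotated start, that of Iars at -24, that of Mars at -17 and that of Nars at -14. In Cars and Yars it began after the start, at bases 18 and 39. The 10 other cytosolic genes with a window (Eprs, Qars, Sars, Kars, Lars, Vars, Farsb, Wars, Farsa and Hars) held no match. A match is a run of letters and was not measured as a bound site in these cells. A lack of match covers only the window, whose place rests on the annotated start. Gars, Rars, Dars and Mars2 were among the members without a window.

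The cytosolic genes with the core ranged from 80.0 RPKM (Iars) to 310 RPKM (Yars), with a median of 185 ± 7.39 RPKM (SD, n = 2). Those with a window and no match ranged from 27.6 RPKM (Hars) to 227 RPKM (Eprs), with a median of 146 ± 4.42 RPKM. The ranges overlapped from 80.0 to 227 RPKM, so the core did not divide the cytosolic genes by level. Among the 7 measured genes of an amino acid response list with a window, Chac1 and Trib3 held TGATGNAA, and Asns did not.

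Nearly all synthetase genes were detected in both libraries. Of 37 members 36 had a mean of 1 RPKM or more, against 46.4% of all genes, and 33 had a mean of 10 RPKM or more, against 29.4%. A mean of 100 RPKM or more was seen for 15 members, all cytosolic, against 4.0% of all genes. The median member stood at 74.4 and 74.2 RPKM in replicates 1 and 2. Over all genes whose mean was 1 RPKM or more the median was 16.8 and 16.6 RPKM. Together the members made up 0.836% and 0.860% of all RPKM summed per library.

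**Figure D1:**
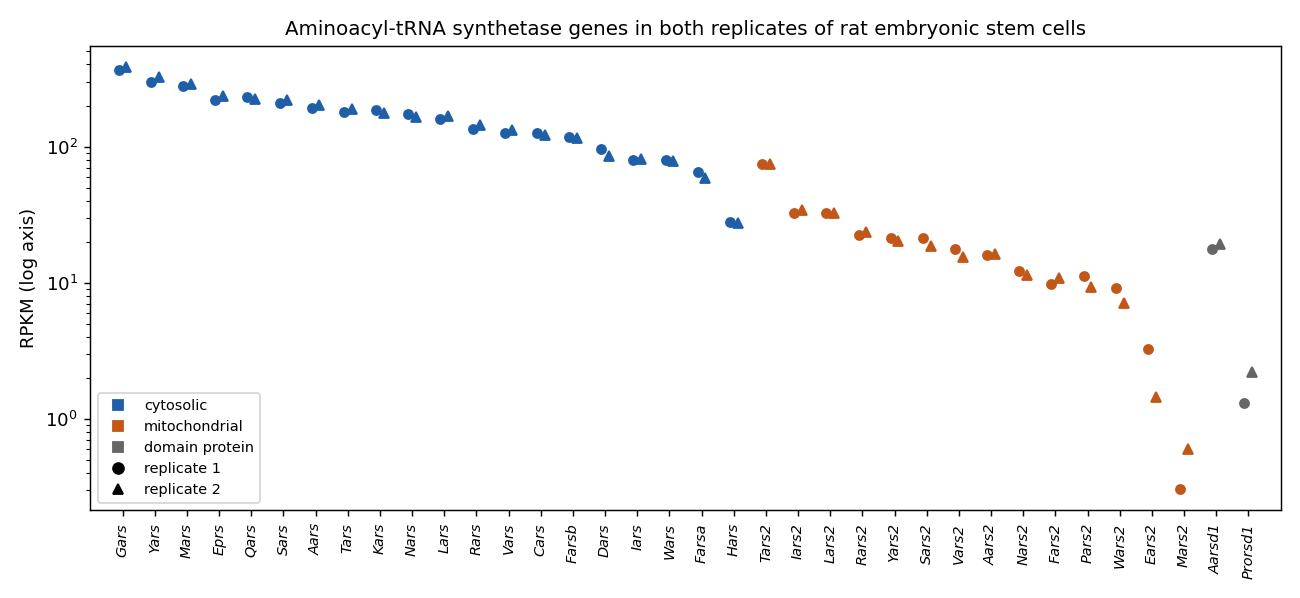
RPKM (log axis) of 36 of the 37 members in replicate 1 (circles) and replicate 2 (triangles), ordered by mean within cytosolic (blue), mitochondrial (orange) and domain-only (grey) genes. Cytosolic genes run from Gars at 375 RPKM to Hars at 27.6 RPKM, and mitochondrial genes from Tars2 at 74.3 RPKM to Mars2 at 0.450 RPKM.

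The cytosolic set was complete, with an enzyme for each of the 20 amino acids, and every member of it was at 27.5 RPKM or more in both replicates. Gars, which charges glycine in the cytosol and in mitochondria (Entrez gene 297113, rn5 chromosome 4, 149892372 to 149933329, plus strand), was the highest, at 367 and 383 RPKM. It was 113th among all genes of the table by mean. Yars, the tyrosine enzyme (Entrez gene 313047, rn5 chromosome 5, 151109967 to 151138479, plus strand), followed at 299 and 321 RPKM. Mars, which charges both initiator and elongator methionine tRNA, was at 280 and 289 RPKM. These 3 stood above every other member in both replicates.

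Next came Eprs, a fused enzyme that charges both glutamate and proline, at 218 and 235 RPKM. Qars, for glutamine, was at 231 and 222 RPKM, so its order against Eprs differed between the replicates. Sars, which also charges the selenocysteine tRNA with serine, was at 209 and 221 RPKM. Below these lay Aars for alanine (195 ± 6.88 RPKM, SD, n = 2), Tars for threonine (185 ± 7.39 RPKM) and Kars for lysine (181 ± 4.48 RPKM). Tars and Kars changed order between the replicates, at 179 and 190 RPKM for Tars against 184 and 178 RPKM for Kars.

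Nars for asparagine (170 ± 6.30 RPKM) and Lars for leucine (163 ± 5.17 RPKM) also changed order between the replicates. Rars for arginine stood at 138 ± 6.53 RPKM, Vars for valine at 129 ± 3.68 RPKM and Cars for cysteine at 124 ± 2.51 RPKM. Below 100 RPKM were Dars for aspartate (95.7 and 85.1 RPKM), Iars for isoleucine (79.2 and 80.7 RPKM) and Wars for tryptophan (79.3 and 78.6 RPKM). Iars and Wars could not be ordered within their spread. Iars had another row on chromosome 17 that was listed at 0 in both replicates.

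The cytosolic phenylalanine enzyme is built from equal numbers of alpha and beta subunits. Farsb, the beta subunit, was at 117 and 115 RPKM, and Farsa, the alpha subunit, at 65.4 and 59.2 RPKM. Per length Farsb was 1.87 ± 0.114 times as high as Farsa (SD, n = 2), and the values did not overlap. The protein ratio was not measured.

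Hars, which charges histidine (Entrez gene 307492, rn5 chromosome 18, 29315352 to 29332458, minus strand), was the lowest cytosolic gene, at 27.7 and 27.5 RPKM. The next lowest, Farsa, was more than 2-fold above it in both replicates. RefSeq names a pseudogene of Hars, Hars1-ps1, as it does for Kars and Dars. How multi-mapped reads were handled is not given, and the part of these copies in the levels was not tested. Hars lies head to head with a gene that the table calls Hars2l and RefSeq names Hars2, its mitochondrial counterpart, with 143 bases between the annotated loci in rn5. No other members lay within 10 kb of each other. Hars2l, which the member rule leaves out for its description as "like", was at 25.5 and 24.5 RPKM, close below Hars in both replicates. The stretch between the starts of the 2 genes in GRCr8 is printed in full because it holds the whole shared upstream sequence, plus strand, with the letters CTTCCGG in capitals.
Hars to Hars2 (chr18:28672713-28672855): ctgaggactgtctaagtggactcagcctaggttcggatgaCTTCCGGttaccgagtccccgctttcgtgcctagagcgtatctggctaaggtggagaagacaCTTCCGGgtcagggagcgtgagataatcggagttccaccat
CTTCCGG is the reverse complement of CCGGAAG, a sequence that some ETS transcription factors bind, and it was chosen after the stretch was seen. It stood 2 times in these 143 bases. On either strand it was in the windows of 9 of 17 cytosolic and 4 of 13 mitochondrial genes. The share was 9.63% of all genes with a window, and 20.2% of those at a mean of 1 RPKM or more. Hars is among the 9 by the choice of letters, so these counts and shares are a description and lend the matches no support.

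The mitochondrial set was lower. Its means spanned 165-fold, against 13.6-fold in the cytosolic set, but that width includes Mars2 and Ears2, whose values rest on few reads. The other mitochondrial members ran from 8.13 RPKM (Wars2) to 74.3 RPKM (Tars2). Of the 15 mitochondrial members 14 reached a mean of 1 RPKM, 12 reached 10 RPKM and none reached 100 RPKM. The list median was 17.6 and 16.3 RPKM in the 2 replicates, close to the median of all genes at 1 RPKM or more. Tars2, for threonine (Entrez gene 310672, rn5 chromosome 2, 217350894 to 217367942, minus strand), stood apart at 74.4 and 74.2 RPKM. It was the only mitochondrial member above the cytosolic Farsa, and it lay below Wars and Iars in both replicates.

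Iars2 (32.8 and 34.4 RPKM) and Lars2 (32.4 and 32.2 RPKM) followed, for isoleucine and leucine. They and Tars2 were among the 4 mitochondrial members above Hars. A middle group held Rars2 (23.0 ± 0.876 RPKM), Yars2 (20.7 ± 0.588 RPKM), Sars2 (19.8 ± 1.85 RPKM), Vars2 (16.5 ± 1.54 RPKM) and Aars2 (16.2 ± 0.197 RPKM). The replicate values of Yars2 and Sars2 overlapped, as did those of Vars2 and Aars2. Nars2 (11.8 ± 0.539 RPKM), Fars2 (10.3 ± 0.790 RPKM) and Pars2 (10.2 ± 1.35 RPKM) lay just above 10 RPKM. Wars2 was at 9.13 and 7.13 RPKM.

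Ears2, for glutamate, and Mars2, for methionine, were far lower than the rest, and both values rest on few reads. Ears2 was at 3.25 and 1.45 RPKM over 2 rows placed on chromosome 1. The first row, at 1.27 RPKM in replicate 1, was listed at 0 in the other, and the other was at 1.97 and 1.45 RPKM, on as few as 4 and 3 reads. A further gene described as an Ears2 pseudogene was at 0.610 and 0.399 RPKM. Mars2 was at 0.304 and 0.597 RPKM, on 1 and 2 reads or a common multiple of these. A gene described as a Mars2-like ligase, which RefSeq names Mars2, spans the same length, 2198 bp, elsewhere on chromosome 9 and was listed at 0 in both. The handling of multi-mapped reads is not given in the sources used here, so the levels of Ears2 and Mars2 are uncertain and the part of these copies was not tested.

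Each amino acid with its own enzyme in both compartments was then compared within a library. In all 15 pairs the cytosolic gene was higher in both replicates, and in all 15 by more than 2-fold. It was more than 5-fold higher in 11 pairs and more than 10-fold higher in 6. The median fold was 9.39 in replicate 1 and 11.03 in replicate 2. As log2(RPKM + 1), the median paired difference was 3.17 ± 0.17 (SD, n = 2), and the cytosolic list median exceeded the mitochondrial one by 3.22 ± 0.07, by 3.17 and 3.27 in the replicates. These differences were many times the spread between replicates.

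**Figure D2:**
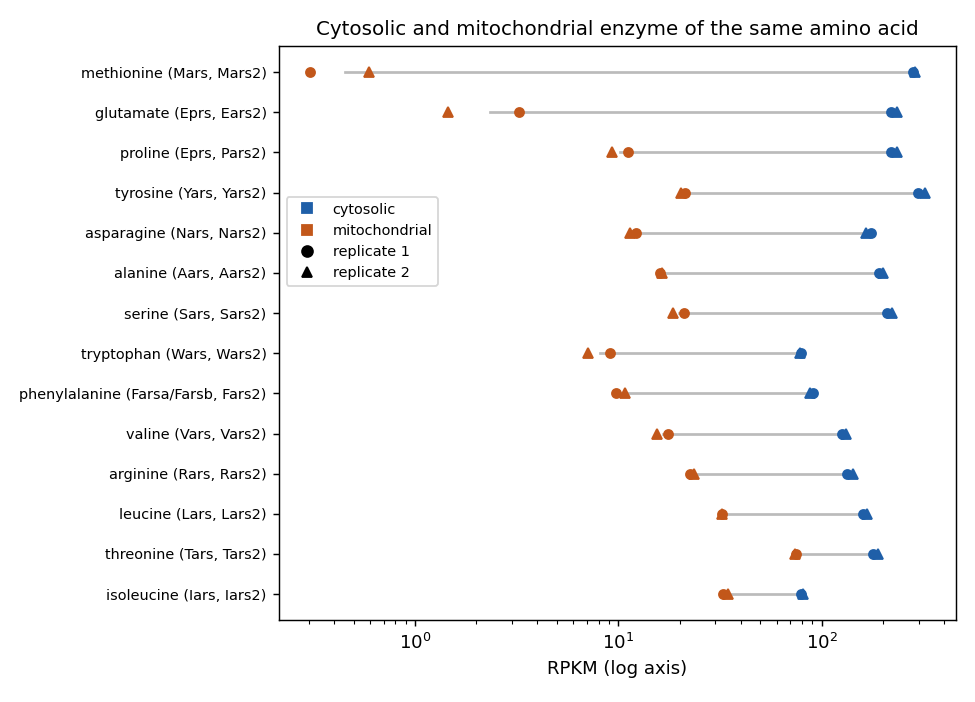
RPKM (log axis) of the cytosolic (blue) and mitochondrial (orange) enzyme of 14 of the 15 amino acids compared, in replicate 1 (circles) and replicate 2 (triangles), with a grey line between the means. Phenylalanine uses the mean of Farsa and Farsb, and Eprs stands for both glutamate and proline. Every blue point lies to the right of its orange partners, and the gap is narrowest for isoleucine and widest for methionine.

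The gap was narrowest for isoleucine, where Iars was 2.38 ± 0.0514 times as high as Iars2 (SD, n = 2). Threonine followed, with Tars 2.48 ± 0.104 times Tars2. The isoleucine and threonine folds overlapped between replicates. Iars was low among cytosolic genes, while Tars was near the middle of them and Tars2 was the highest mitochondrial one.

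Leucine (5.03 ± 0.179-fold) and arginine (5.998 ± 0.0555-fold) came next, followed by valine, phenylalanine and tryptophan, at 7.83 to 9.86-fold. Serine (10.9 ± 1.43-fold), alanine (12.1 ± 0.278-fold), asparagine (14.4 ± 0.125-fold), tyrosine (14.98 ± 1.18-fold) and proline (22.5 ± 4.13-fold) were higher. For glutamate Eprs was 67.3 and 162 times Ears2, and for methionine Mars was 921 and 485 times Mars2, values that carry the low read numbers of Ears2 and Mars2. Across the 15 pairs the cytosolic and mitochondrial levels were not positively related, with Pearson's r of -0.32 on log2(mean RPKM + 1) and Spearman's rho of -0.28. Both coefficients include the methionine and glutamate pairs, with the low read numbers of Mars2 and Ears2, and were not computed without them. The pairs share both libraries, and 2 of them share Eprs.

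Amino acids without such a pair were glycine and lysine, whose cytosolic genes serve both compartments, glutamine, cysteine and histidine. RefSeq names Cars2, the mitochondrial cysteine enzyme, for a gene that the table lists as RGD1311612 with a description that names no synthetase. It was at 7.96 and 7.62 RPKM, against 126 and 122 RPKM for Cars. For histidine, Hars and Hars2l differed far less than any of the 15 pairs did.

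Gene ontology terms in the table gave another view of the split by symbol. A mitochondrial term was attached to 14 of 15 mitochondrial members, Sars2 being the exception, and to 7 of 20 cytosolic members, Gars and Kars among them. The members lay on 16 of the 21 chromosomes of the table. Eprs and Iars2 are neighbours on chromosome 13, on opposite strands and 35789 bp apart, at 227 ± 11.8 and 33.6 ± 1.19 RPKM.

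Within the cytosol, levels overlapped widely between the structural classes and between enzymes inside and outside the complex. The 9 class I genes had a median of 138 ± 6.53 RPKM and ranged from Wars to Yars. The 10 class II genes had a median of 174 ± 3.78 RPKM and ranged from Hars to Gars. On the log2(RPKM + 1) scale the class I median was below that of class II, with a difference of -0.34 ± 0.10 (SD, n = 2). With list means in place of medians the difference turned to 0.21, so its direction rests on the summary used. Eprs holds an enzyme of each class and was left out.

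The 8 enzymes of the multisynthetase complex (Mars, Eprs, Qars, Kars, Lars, Rars, Dars and Iars) had a median of 172 ± 0.342 RPKM, against 149 ± 1.31 RPKM for the 12 other cytosolic genes. The log2 difference of 0.21 ± 0.01 exceeded the spread between replicates. It was small beside the range of either set. The complex members spanned 3.56-fold from lowest to highest, and the others 13.6-fold, from Hars to Gars.

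Scaffolds of the complex, which the member rule leaves out as interacting proteins, were expressed below most of its enzymes. Aimp1 was at 115 and 117 RPKM, above Dars and Iars and below the other 6 enzymes. Aimp2 was at 54.9 and 57.7 RPKM, and Eef1e1 at 29.1 and 25.9 RPKM. Aimp2 and Eef1e1 lay below every enzyme of the complex in both replicates.

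**Figure D3:**
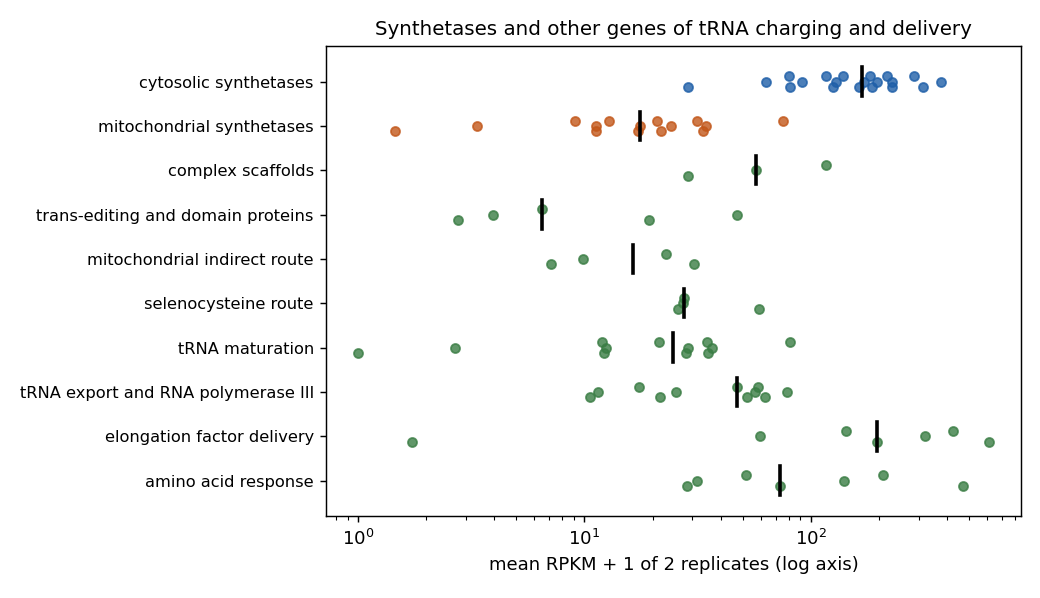
Mean RPKM + 1 of 2 replicates (log axis) for cytosolic (blue) and mitochondrial (orange) synthetases and for other lists of genes in tRNA charging and delivery (green), 1 point per gene, with list medians as black bars. The elongation factor list, with a median of 195 RPKM, and the cytosolic synthetases, with a median of 166 RPKM, lie farthest to the right.

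Genes on either side of the charging step were mostly detected. All 11 genes of tRNA export and RNA polymerase III reached 1 RPKM, with a list median of 46.2 ± 3.46 RPKM. Xpot, the tRNA exporter, was the highest at 74.5 and 80.7 RPKM, followed by the polymerase subunit genes Polr3e (61.7 ± 2.86 RPKM) and Polr3k (57.4 ± 2.98 RPKM), with Polr3f lowest at 9.61 ± 0.630 RPKM. Of 12 tRNA maturation genes 11 reached 1 RPKM, with a median of 23.7 ± 0.136 RPKM. Pop4, of RNase P, led them at 79.6 ± 7.36 RPKM, followed by Elac2 (35.5 ± 1.35 RPKM), which trims the 3′ end of tRNA precursors, and Rpp30 (34.0 ± 3.12 RPKM). Tsen34, of the tRNA splicing endonuclease, was listed at 0 in both, which does not show that it was not transcribed.

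Elongation factors that carry charged tRNA to the ribosome, with their exchange factors, were the highest list, with 6 of 7 at 1 RPKM or more. Eef1g was at 608 and 613 RPKM, Eef1b2 at 419 and 428 RPKM and Eef1a1 at 328 and 308 RPKM. Eef1a2, the isoform of muscle and neurons, was at 0.830 and 0.651 RPKM. All 4 genes of the mitochondrial indirect and formylation routes were detected. Mtfmt, which formylates the initiator tRNA of mitochondria, was at 29.5 ± 0.748 RPKM, Pet112l at 22.0 ± 1.07 RPKM, Qrsl1 at 8.82 ± 2.18 RPKM and Gatc at 6.11 ± 1.16 RPKM. Their median of 15.4 ± 1.62 RPKM was near that of the mitochondrial synthetases.

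Selenocysteine is made on a tRNA that Sars first charges with serine. Of the genes listed for that route, Sepsecs and Pstk were not found by symbol. All 4 measured genes of that route reached 10 RPKM, with Sephs2 at 57.8 ± 3.03 RPKM, Eefsec at 26.7 ± 0.446 RPKM, Sephs1 at 26.2 ± 1.61 RPKM and Secisbp2 at 24.8 ± 0.709 RPKM. Among proteins that correct or release misacylated and peptidyl tRNA, Dtd1, which removes D-amino acids, was at 45.0 and 47.2 RPKM. Aarsd1, which hydrolyses serine from mischarged alanine tRNA, was at 17.6 and 19.1 RPKM, close to Aars2 and far below Aars. Prorsd1, the other domain-only member, was at 1.30 and 2.23 RPKM, on as few as 4 and 7 reads.

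All 7 measured genes of the amino acid response list reached 10 RPKM and 3 reached 100 RPKM, with a median of 71.8 ± 0.209 RPKM (SD, n = 2). Atf4 was at 467 and 468 RPKM, above every synthetase. Asns, the asparagine synthetase and a known ATF4 target, was at 199 and 217 RPKM, and Ddit4 at 147 and 130 RPKM. Eif2ak4, a kinase that senses uncharged tRNA, stood at 71.7 and 72.0 RPKM, Chac1 at 49.0 and 52.2 RPKM and Trib3 at 27.6 and 33.2 RPKM. Ddit3 was the lowest of the 7, at 25.9 and 29.2 RPKM. Its locus overlaps that of Mars by 62 bp on the opposite strand, and whether reads were counted by strand is not given in the sources used here.

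The spread of synthetase genes between the replicates was set beside that of all genes. Among 36 members at a mean of 1 RPKM or more, none differed over 2-fold in RPKM + 1, against 0.721% of all genes at that level. At that share 36 genes are likely to hold none, so this is no trait of the synthetases. Without the added 1, Ears2 was over 2-fold apart, at 3.25 and 1.45 RPKM. The log2 ratio of replicate 2 to replicate 1 had a median of 0.01 and an SD of 0.19 over these members, with 18 of 36 higher in replicate 2. For the 33 members at 10 RPKM or more the SD was 0.10, and no SD for all genes at that level was computed. Over all genes at 1 RPKM or more the median was -0.02 and the SD 0.27, in a set that holds more low genes.

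**Figure D4:**
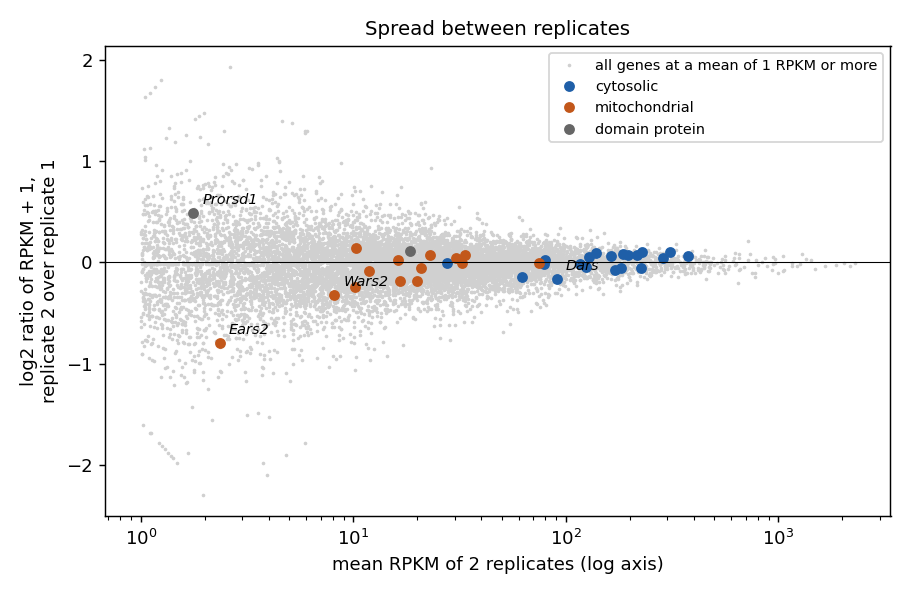
Log2 ratio of RPKM + 1, replicate 2 over replicate 1, against mean RPKM (log axis) for all genes at a mean of 1 RPKM or more (grey) and for the 36 members at that level. Members narrow around 0 with rising level as the grey points do, and Ears2 (-0.79) and Prorsd1 (0.49) lie farthest from 0.

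Of the cytosolic genes, Dars differed most, at 95.7 and 85.1 RPKM, a log2 ratio of -0.17. At least 431 and 391 reads lay behind these values, a counting error of at most 4.82% and 5.06%. Eprs had the largest ratio in the other direction, 0.11. Among mitochondrial genes Wars2, after Ears2, differed most, with a log2 ratio of -0.32 on at least 54 and 43 reads. Counting errors of at most 13.6% and 15.2% belong to its values.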

How the data were processed

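Total RNA of 2 libraries was sequenced after TruSeq preparation, per the labels' protocols. The deposited RPKM table holds a column for each library, assigned here through the sample titles. CASAVA 1.8 and TopHat 1.4.0 and the builds rn5 and Rnor_5.0 are named in the submitters' processing notes. How reads were counted, multi-mapped ones included, is not given in the sources used here.

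Rows of the same Entrez identifier were summed. Differences use log2(RPKM + 1), which understates those of low genes, and levels are means ± SD over 2 replicates. With 1 group no test was run. Members and gene lists were chosen with earlier results of these data known. The rule for names takes every member and, of each pathway list, the 3 highest and the lowest measured genes, some of which are not reported here; Chac1, Trib3 and others are named where the text turns on them. Eif2ak4, Chac1 and Trib3 are named outside that rule and were chosen after their values were seen. Dtd2, Sepsecs, Pstk and Sesn2 were looked up by symbol and not found, so they have no values here.

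Read totals are those, between 1000000 and 4000000, at which the largest number of rows with loci shorter than 6000 bp gave whole reads (527 of 2700 in replicate 1 and 525 of 2688 in replicate 2, relative tolerance 3e-07), taking the locus as the gene model. Member reads use the shortest model from 60 to 5000 bp that made both libraries whole, found for 27 of 37 member rows above 0 in both, and cover counting error only. They can be too low by a common factor or, in a well covered gene, a chance match. Promoter windows came from a RefSeq table of GRCr8. Amino acid demand and protein identity were planned and not run, since no protein sequences were used here. The difference of list medians and the search for read totals were tested on simulated data. The rules for members and groups were checked on a few made-up entries. Python 3.11.15 was used, and the libraries were pandas 2.3.3, numpy 2.4.6, scipy 1.17.1 and matplotlib 3.10.9.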

Additional observations from a re-analysis of the deposited data

How the results depend on the processing

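The cytosolic set stayed above the mitochondrial set under all 11 alternatives for the list medians, with a log2 difference of 3.01 to 3.29. It did so under all 10 for the pairs, with 2.998 to 3.36. Not every alternative could move the result. Gars and Kars are in no pair, so leaving them out could not change the paired difference. Taking the highest row of each Entrez identifier bears only on Iars and Ears2 and left both differences unchanged. The list difference moved by more than the replicate SD to 3.11 with only members at 1 RPKM or more, to 3.07 without Gars and Kars, to 3.07 with Aarsd1 and Prorsd1 counted as cytosolic, and to 3.01 without Mars2 and Ears2. List means moved the paired difference to 3.36 and the difference between the multisynthetase complex and other cytosolic genes to 0.23, and turned that between class I and class II to 0.21. The cause of that turn was not tested. Each replicate alone gave 3.17 and 3.27 for the lists, 3.05 and 3.29 for the pairs, -0.41 and -0.26 for the classes, and 0.20 and 0.22 for the complex. Leaving out Mars2 and Ears2, and adding the genes that RefSeq names Cars2 and Hars2 (3.22 for the lists, 3.17 for the pairs), were chosen after seeing the data. Between 34 and 37 members were detected over the minimums tried. The correlation of synthetase levels with amino acid demand was not run. No paired analysis was possible because the series holds only 1 group. Depth limits Mars2, Ears2 and Prorsd1, whose levels rest on few reads.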
